A study of Mus musculus with 10 samples.

Results

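Protein phosphatases remove phosphate groups from proteins. The genes described here are those in the deposited expression table whose symbols begin with Ppp1 to Ppp6 (catalytic and regulatory subunits of the serine/threonine phosphatases PP1 to PP6), Ppm1 (metal-dependent serine/threonine phosphatases), Ptpn followed by a digit (non-receptor tyrosine phosphatases), Ptpr (receptor tyrosine phosphatases) or Dusp (dual specificity phosphatases). Membership rested on the symbol, and 71 of the 6147 genes in the table matched. The set itself was chosen with earlier results of these data known. All 71 had a mean of at least 1 TPM over the 10 libraries, the minimum for testing, and 69 stood at 1 TPM or more in every library. TPM, the abundance unit of the table, is a level per unit of gene length, adjusted so that every library has one total.

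The measurements were RNA-seq of whole neocortex, the layered part of the cerebral cortex, from wild-type CD1 mice, an outbred strain, with no treatment. Tissue was taken at mid-gestation (E12.5, where E is the embryonic day), at E14, E15.5, E17 and on the day of birth (P0), with 2 libraries at each of the 5 stages. The design text calls the 2 libraries of a stage biological duplicates, and the labels give neither the number of animals behind each nor their sex. Every p-value below rests on the spread within these pairs. The comparisons ask how the level of each phosphatase gene differed between stages of cortical development. In whole tissue, fewer cells of a type and less RNA per cell cannot be told apart.

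PP1, PP2A and calcineurin are the main serine/threonine phosphatases of brain. PP1 has one catalytic subunit at a time, and many inhibitor and targeting proteins decide where and when it acts. PP2A is a trimer of a catalytic, a scaffold and a B-type regulatory subunit, and the B subunit chooses the substrate. Calcineurin, or PP2B, has a catalytic A and a calcium-binding B subunit. It is switched on by calcium, acts on NFAT transcription factors and dynamin, and is abundant in neurons. Receptor tyrosine phosphatases span the membrane, and several of them bind heparan or chondroitin sulfate proteoglycans, contactins or synaptic adhesion proteins on growing axons and at synapses.

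All 3 catalytic genes of PP1 were in the table, with 7 of 11 listed inhibitors and 12 of 28 listed targeting subunits. PP2A had all 4 catalytic and scaffold genes and 9 of 12 B subunits, and calcineurin had Ppp3ca, Ppp3cb and Ppp3r1 of 5 listed genes. There were 8 of 11 genes of PP4, PP5 and PP6, 9 of 22 receptor and 6 of 17 non-receptor tyrosine phosphatases, and 7 of 12 Ppm1 genes. Of the dual specificity phosphatases, 3 of 14 atypical ones were present (Dusp3, Dusp12 and Dusp19) and 0 of 10 MAP kinase phosphatases. Genes outside the table were not analysed here.

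The proximal upstream regions of 4 genes with clear patterns below are shown. The genes are the calcineurin subunits Ppp3cb and Ppp3r1, which rose together, and the PP1 inhibitor genes Ppp1r14c and Ppp1r14a, which went opposite ways. No upstream sequence was available for Ppp3ca, the calcineurin gene that rose most. The regions are RefSeq sequence on GRCm38.p6, 5′ to 3′ on the gene's strand. Each ends just before the more upstream of the RefSeq and GENCODE starts. Ppp3cb is chr14:20546574-20546773 (minus strand), Ppp3r1 is chr11:17159063-17159262 (plus), Ppp1r14c is chr10:3365900-3366056 (plus) and Ppp1r14a is chr7:29289108-29289307 (plus). Capitals mark matches on either strand to 5 motifs. They are the GC box with the letters GGGCGG, the CCAAT box, the TATA box with the letters TATAAA, the cyclic AMP response element with the letters TGACGTCA, and an E-box with the letters CAGATG.
Ppp3cb: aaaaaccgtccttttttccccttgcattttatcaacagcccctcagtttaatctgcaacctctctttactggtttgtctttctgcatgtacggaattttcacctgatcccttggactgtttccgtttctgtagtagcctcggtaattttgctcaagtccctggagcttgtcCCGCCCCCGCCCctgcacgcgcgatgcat
Ppp3r1: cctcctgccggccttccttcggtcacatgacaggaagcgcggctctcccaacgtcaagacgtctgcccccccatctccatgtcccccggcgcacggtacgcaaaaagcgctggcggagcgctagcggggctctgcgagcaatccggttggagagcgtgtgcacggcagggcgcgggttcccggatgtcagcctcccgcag
Ppp1r14c: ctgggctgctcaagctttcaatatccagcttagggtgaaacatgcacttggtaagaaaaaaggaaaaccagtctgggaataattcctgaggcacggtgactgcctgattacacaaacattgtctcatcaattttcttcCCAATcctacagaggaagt
Ppp1r14a: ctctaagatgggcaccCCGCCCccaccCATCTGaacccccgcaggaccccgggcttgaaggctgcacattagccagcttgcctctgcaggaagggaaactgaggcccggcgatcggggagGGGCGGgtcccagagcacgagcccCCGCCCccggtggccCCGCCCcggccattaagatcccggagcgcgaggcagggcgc

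The 4 regions differed in base composition. The Ppp1r14a region had 71.5% G and C, 16 CpG dinucleotides, 4 GC boxes and 1 E-box, while the shorter Ppp1r14c region of 157 bases had 43.3% G and C, 1 CpG and 1 CCAAT. Ppp3r1 had 22 CpG and none of the 5 motifs, and Ppp3cb had 9 CpG and 2 GC boxes. In the unshifted 200 bases before the RefSeq start, both calcineurin genes held a GC box, and both Ppp1r14a and Ppp1r14c held the E-box, so the matches depend on which start is used. Over the 200 bases before the RefSeq start, available for 57 of the 71 genes, a GC box was present in 64.9% of phosphatase genes, against 61.5% of the 4769 tested genes with a window and 31.3% of all 27018 RefSeq genes. The cyclic AMP response element was found in 6 phosphatase genes (Ppm1a, Ppm1d, Ppp1r12c, Ppp2ca, Ppp2r2d and Ptpn11), or 10.5%, against 3.0% of tested genes. A CCAAT was present in 26.3% against 32.7%, TATAAA in 3.51% against 3.40%, and CAGATG in 5.26% against 6.31%. A match is a description of letters, not a binding site.

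The 71 genes summed to between 0.982% and 1.13% of the TPM of all listed genes in each library. Listed genes summed to between 68.9% and 71.7% of the full TPM total, so the table is not the whole transcriptome. The 2 libraries of a stage correlated at a Pearson r of 0.996 to 0.999 across genes, except at E17, where r was 0.989 and the SD of the difference between the libraries was 0.285 on the log2(TPM + 1) scale against 0.0880 to 0.176 elsewhere. E17 values below are therefore given for each library. Of the marker genes, 11 of 12 proliferation genes were in the table and summed to 1476 and 1536 TPM at E12.5 and 165 and 166 TPM at P0, and 9 of 10 neuronal genes summed to 2407 and 2442 TPM at E12.5 and 9093 and 9882 TPM at P0. Markers of meninges and vessels were high at E12.5 and E14 and low later. Of the meningeal genes, 5 of 6 were in the table and summed to 173 TPM in each E12.5 library. They summed to 106 to 111 TPM at E14 and 2.22 to 6.63 from E15.5 on. The vascular gene Cdh5 (1 of 10 listed) went from a mean of 14.6 TPM at E12.5 to 1.15 at P0. Genes of red blood cells (3 of 8) and choroid plexus (2 of 5) followed that pattern, and the blood gene Hbb-bh1 was listed at 0 in both P0 libraries. The 2 microglial genes present of 11 had stage means that summed to between 12.7 and 19.1 TPM, and those of the 1 oligodendrocyte lineage gene of 6 lay between 0.398 and 1.17 TPM.

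Levels and changes were tested with limma on log2(TPM + 1) over all 6048 genes averaging 1 TPM or more, and called at a Benjamini-Hochberg adjusted p under 0.05. All adjusted p-values below are from limma unless an exact test is named. Levels differed between stages for 61 of the 71 genes, against 82.9% of all genes tested. From E12.5 to P0, 58 of the 71 changed, or 81.7%, near the background of 78.2%. Of them 28 rose and 30 fell, where 27.1% of all genes rose and 51.0% fell. The median change was -0.11 for the phosphatases and -0.27 for all genes. Median-of-ratios scaling moved the median of all genes to -0.01, and the phosphatase calls then split into 32 higher and 23 lower. Of the 58 genes called, 47 were called under all 22 alternative settings and 55 kept their sign.

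The 18 genes called with a change of at least 1 on the log2 scale were 10 that rose and 8 that fell. They were 25.4% of the members, against 31.1% of all genes (11.1% higher, 20% lower). From E14 to E15.5, 38 of 71 changed (18 higher, 20 lower) against 51.7% of all genes (18.4% higher, 33.3% lower). From E17 to P0 there were also 38 (16 higher, 22 lower) against 41.7% (12.9% higher, 28.8% lower). Without E17 replicate 1 that step gave 22 higher and 17 lower, and without E17 replicate 2 it gave 18 and 34. From E15.5 to E17 there were 17 (13 higher, 4 lower) against 25.0% (14.4% higher, 10.6% lower). This balance also depended on which E17 library was left out. From E12.5 to E14 there were 6 (5 higher, 1 lower) against 8.73% (3.95% higher, 4.78% lower). The balance of that first step was not stable, with 11 higher and 13 lower under array weights and 10 and 15 with only its 4 libraries in the fit. With median-of-ratios scaling the splits were 25 higher and 15 lower for E14 to E15.5, 23 and 18 for E17 to P0, and 6 and 0 for E12.5 to E14. Correction for length and GC content gave 16 higher and 15 lower for E15.5 to E17.

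**Figure D1:**
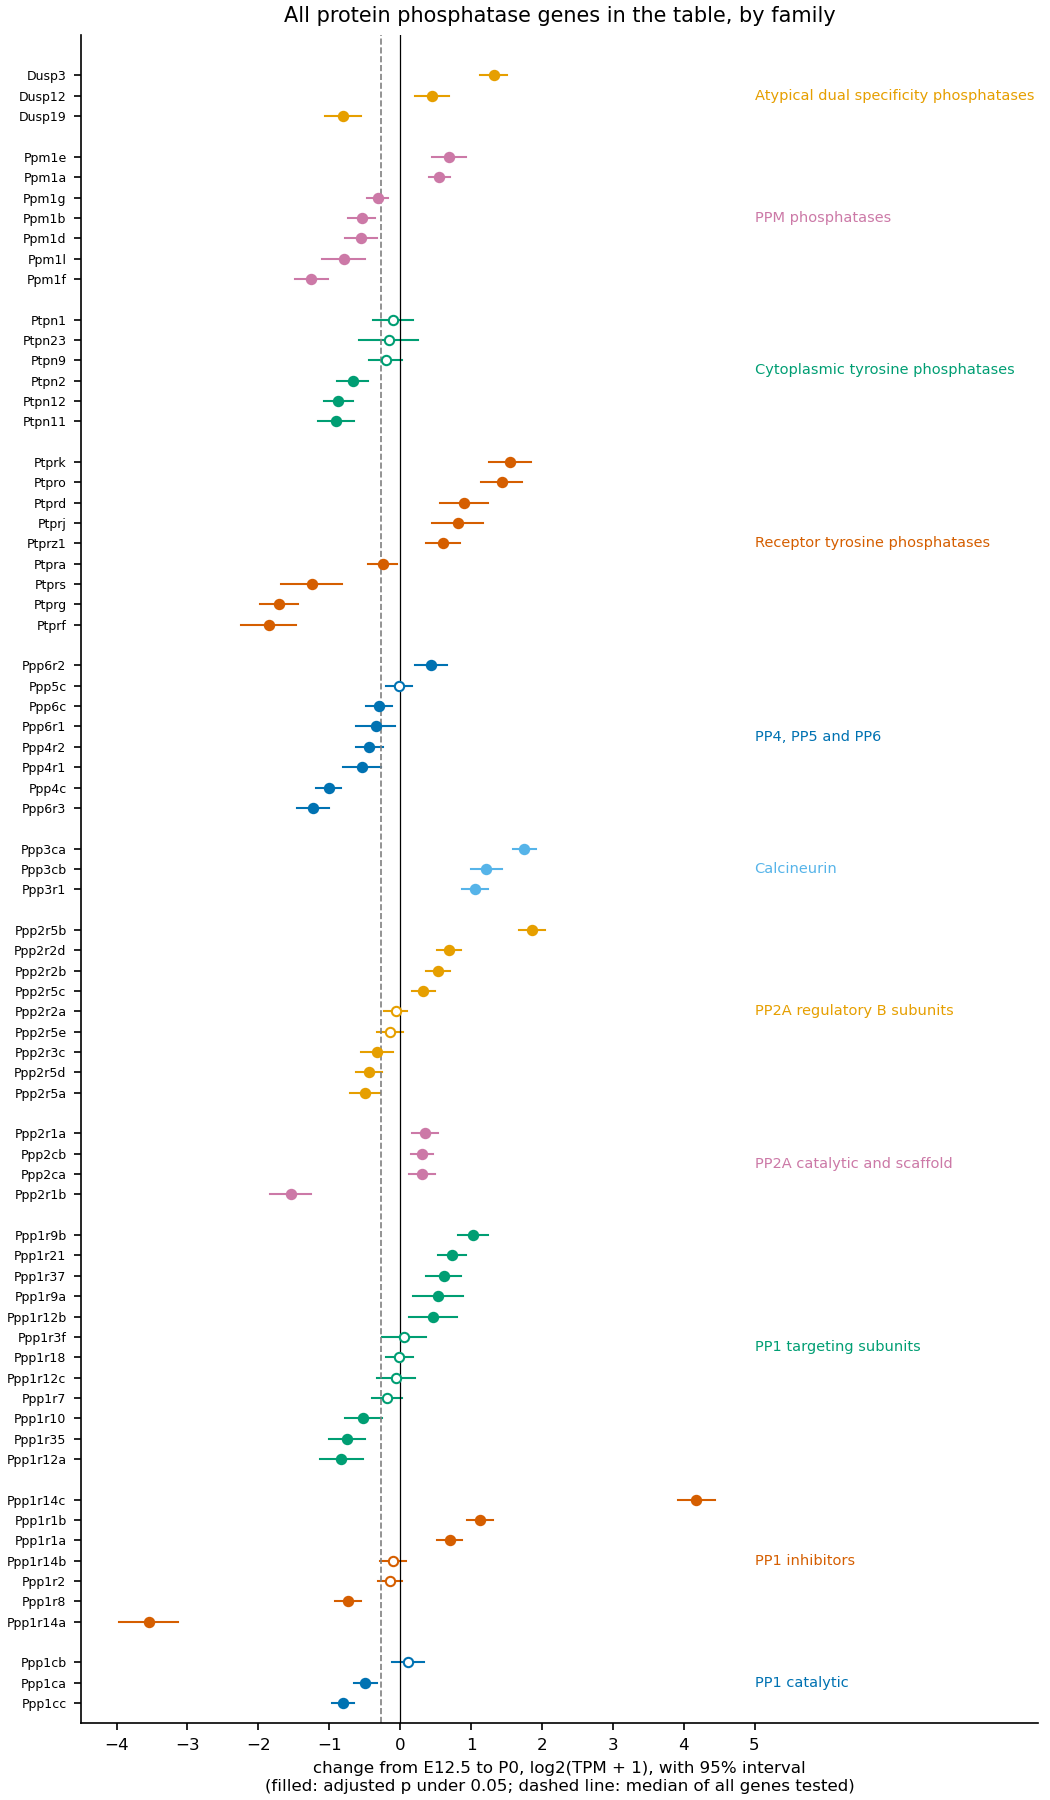
Change from E12.5 to P0 on the log2(TPM + 1) scale (x axis) of all 71 protein phosphatase genes, grouped by family, with 95% intervals; filled points have an adjusted p under 0.05, open points do not, and the dashed line is the median of all genes tested. The 3 calcineurin genes all lie between 1.06 and 1.75, the 9 receptor tyrosine phosphatases spread from -1.85 to 1.55, and the PP1 inhibitors Ppp1r14c (4.18) and Ppp1r14a (-3.55) lie at the ends.

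Calcineurin was the family in which every gene in the table rose. The summed level of its 3 genes went from 524 ± 21.8 TPM at E12.5 to 863 ± 1.69 at E15.5 and 1236 ± 66.3 at P0 (SD, n = 2), or 2.36-fold. Ppp3ca, which encodes the A-alpha catalytic subunit, stood at 78.6 and 74.7 TPM in the E12.5 libraries, 95.2 and 89.0 at E14, 163 in each at E15.5, 170 and 184 at E17, and 261 in each at P0. Both libraries of each later stage were above those of every earlier stage. The rise was 3.40-fold in TPM and 1.75 in log2 terms (SE 0.07, adjusted p = 1.4e-09).

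Ppp3cb, the A-beta catalytic subunit, stood at 163 and 157 TPM at E12.5, 180 and 187 at E14, 245 and 239 at E15.5, 246 and 303 at E17, and 351 and 396 at P0. It rose by 1.22 (SE 0.10, adjusted p = 3.9e-07), and no library overlapped with one of an earlier stage. Ppp3r1, the calcium-binding B subunit, was the most abundant calcineurin gene at each stage: it stood at 298 and 278 TPM at E12.5, 320 and 338 at E14, 454 and 462 at E15.5, 449 and 505 at E17, and 577 and 626 at P0. It rose by 1.06 (SE 0.08, adjusted p = 3.0e-07), with overlapping libraries at E15.5 and E17 only. The exons of Ppp3r1 overlap those of Wdr92 on the same strand.

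All 3 calcineurin genes rose from E14 to E15.5, by 0.82 for Ppp3ca, 0.40 for Ppp3cb and 0.48 for Ppp3r1, and again from E17 to P0, by 0.56, 0.45 and 0.34. From E12.5 to E14 their changes were 0.26, 0.20 and 0.19, and from E15.5 to E17 they were 0.11, 0.17 and 0.06, none called. Without E17 replicate 1, 1 of the 3 was called from E15.5 to E17, Ppp3cb (0.32, adjusted p = 0.0073). With length and GC correction 2 were called there, Ppp3ca (0.18, adjusted p = 0.033) and Ppp3cb (0.23, adjusted p = 0.021). All 3 were called from E12.5 to P0 under each of the 22 alternatives. The neuronal markers rose over the same stages, all 9 in the table, by a median of 2.91, and their part in the calcineurin rise was not tested.

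**Figure D2:**
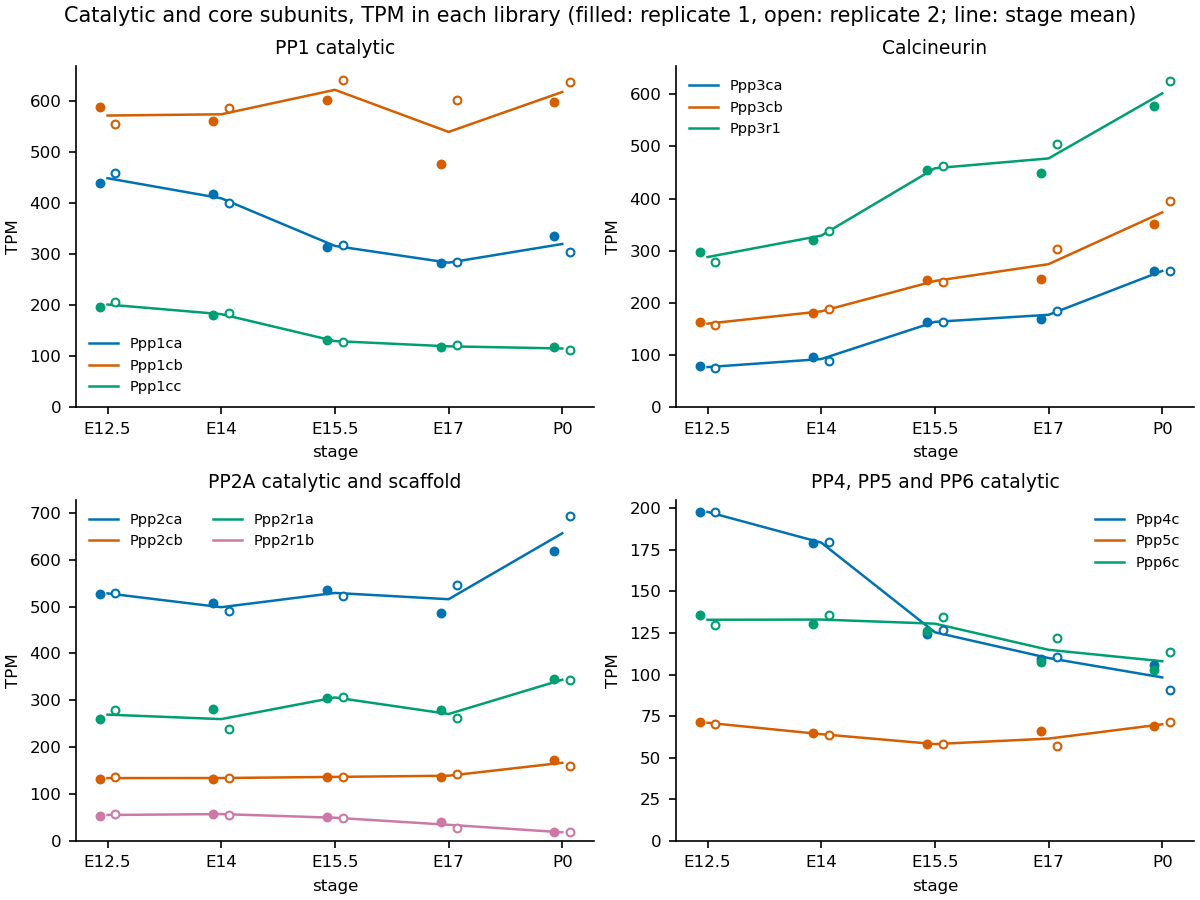
Level in TPM (y axis, from 0) at each stage (x axis) of the catalytic and core subunits of PP1, calcineurin, PP2A and PP4 to PP6, with 1 point for each library and a line through the stage means. The calcineurin lines climb to 261 TPM (Ppp3ca), 373 (Ppp3cb) and 602 (Ppp3r1) at P0, while Ppp1cb stays the highest PP1 gene and Ppp4c drops from 198 TPM to 98.3.

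Of 16 listed partners and targets of calcineurin, 8 were in the table, of which 5 rose and 2 fell from E12.5 to P0. Among all genes tested, 27.1% rose and 51.0% fell. The dynamin gene Dnm1, whose product calcineurin dephosphorylates in nerve terminals, rose by 2.80 (SE 0.13, adjusted p = 3.1e-09), from a mean of 6.24 to 49.4 TPM. Rcan1, a calcineurin inhibitor, and Akap5, an anchoring protein, rose by 0.48 and 0.56, and Fkbp1a, the protein bound by FK506, by 0.27. Nfatc4, an NFAT transcription factor, fell by 2.72 (SE 0.13, adjusted p = 4.0e-09); its mean was 32.7 TPM at E12.5 and 4.10 at P0. Cabin1, an inhibitor, fell by 0.51. Ppia, the cyclophilin bound by cyclosporin, had a change of 0.09 (adjusted p = 0.531).

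The catalytic genes of PP1 did not follow one course. Ppp1cb, the beta isoform found in myosin phosphatase, had the highest mean of all 71 genes, 585 TPM. It stood at 589 and 554 TPM at E12.5 and 598 and 637 at P0, a change of 0.11 (95% interval -0.12 to 0.34, adjusted p = 0.346). This change was called under median-of-ratios scaling (0.39, adjusted p = 0.020) and once length and GC content were corrected for (0.51, adjusted p = 0.0014). The exons of Ppp1cb overlap those of Gm43312 on the same strand.

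The other two PP1 catalytic genes fell. Ppp1ca, the alpha isoform, stood at 438 and 459 TPM at E12.5, 418 and 400 at E14, 314 and 317 at E15.5, 282 and 284 at E17, and 334 and 305 at P0. It fell by 0.49 (SE 0.07, adjusted p = 7.9e-05), with the called part between E14 and E15.5. Ppp1cc, the gamma isoform, went from 196 and 206 TPM at E12.5 to 132 and 127 at E15.5 and 118 and 112 at P0, and fell by 0.80 (SE 0.07, adjusted p = 7.3e-07). As a share of the summed PP1 catalytic TPM, Ppp1cb went from 46.8% ± 1.89 to 58.7% ± 2.49, Ppp1ca from 36.7% ± 1.28 to 30.4% ± 2.07 and Ppp1cc from 16.5% ± 0.608 to 10.9% ± 0.426 (SD, n = 2).

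The PP1 inhibitors held the largest changes of all 71 genes. From E12.5 to P0, 3 of the 7 rose and 2 fell, against 27.1% and 51.0% of all genes. Ppp1r14c encodes KEPI, a PP1 inhibitor of the CPI-17 family (ENSMUSG00000040653, chr10:3366057-3464975, plus strand, GRCm38). It stood at 15.1 and 15.7 TPM at E12.5, 20.9 and 25.3 at E14, 79.1 and 81.3 at E15.5, 146 and 175 at E17, and 275 and 320 at P0. Each stage lay above the one before with no overlap. The gene rose at each of the 4 steps, by 0.55, 1.76, 0.99 and 0.89. The first of these rises was not called when either E12.5 library or E14 replicate 2 was left out. The whole rise was 19.3-fold in TPM and 4.18 in log2 terms (SE 0.12, adjusted p = 6.6e-11). Its exons overlap those of Gm26752 on the other strand.

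Ppp1r14a encodes CPI-17 itself, a myosin phosphatase inhibitor best known from smooth muscle (ENSMUSG00000037166, chr7:29289308-29293801, plus strand, GRCm38). It stood at 24.0 and 19.6 TPM at E12.5, 18.9 and 14.4 at E14, 6.22 and 5.04 at E15.5, 4.40 and 2.68 at E17, and 0.950 and 0.924 at P0. The libraries at E15.5 and later were all below those of E12.5 and E14. It fell by 3.55 in log2 terms (SE 0.19, adjusted p = 9.7e-09), or 23.2-fold in TPM. It fell by 1.41 from E14 to E15.5 and by 1.2 from E17 to P0. Its value of -0.57 from E15.5 to E17 (adjusted p = 0.048) lost its call in 14 alternatives. The meningeal markers (5 of 6 present, all called lower) and Cdh5 also dropped between E14 and E15.5, by a median of 3.86 and by 2.22, and their part in the Ppp1r14a change was not tested. Ppp1r14b, the family member with the highest level, stood at 370 and 375 TPM at E12.5 and 357 and 336 at P0 (change -0.11, 95% interval -0.29 to 0.08, adjusted p = 0.264). Its exons overlap those of Plcb3 on the other strand.

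Ppp1r1b encodes DARPP-32, which inhibits PP1 when protein kinase A phosphorylates it. It stood at 28.9 and 27.9 TPM at E12.5, 47.8 and 45 at E14, 89.7 and 90.9 at E15.5, 87.3 and 77.7 at E17, and 64.7 and 62.5 at P0. It was highest in the middle of the series: it rose by 0.69 and 0.95 at the first and second steps and fell by 0.37 from E17 to P0 (adjusted p = 0.0056). Its relative Ppp1r1a, inhibitor 1, ran the other way, with 131 and 129 TPM at E12.5, 96.1 and 98.5 at E15.5, and 215 and 208 at P0. It fell by 0.36 from E14 to E15.5 and rose by 0.47 and 0.64 at the next steps. Ppp1r8 (NIPP1, a nuclear inhibitor) fell by 0.73 (adjusted p = 9.3e-06), and Ppp1r2 (inhibitor 2) had a change of -0.14 (adjusted p = 0.122); its 7 named pseudogenes make its count uncertain.

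**Figure D3:**
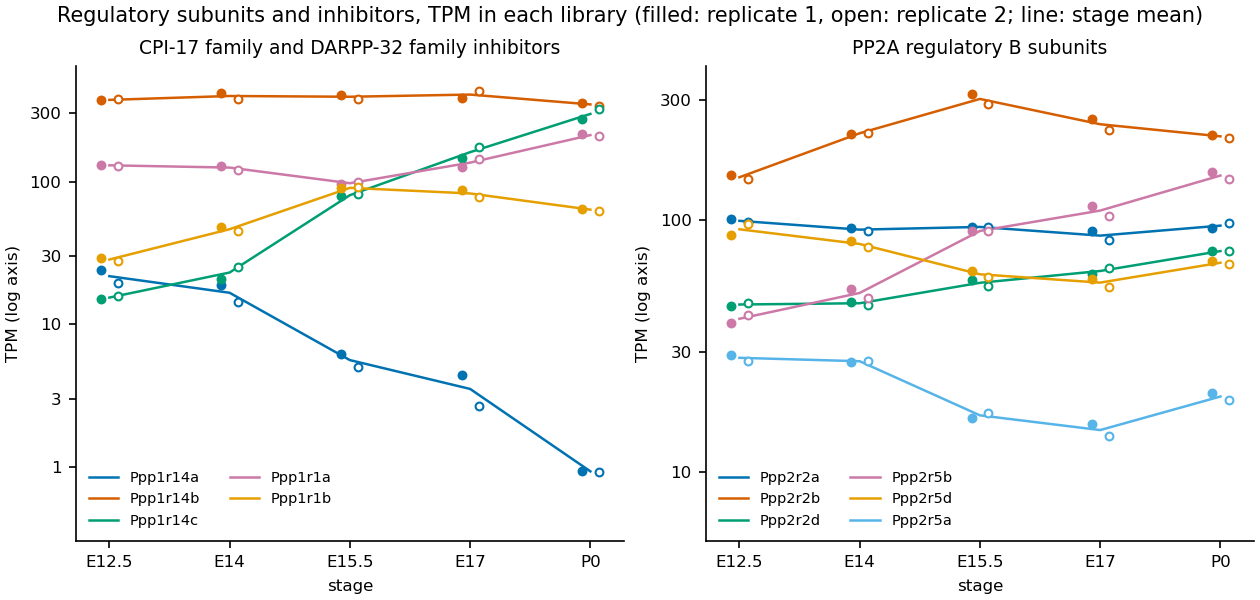
Level in TPM (y axes, logarithmic) at each stage (x axes) of PP1 inhibitor genes and of PP2A B subunit genes, with 1 point for each library and a line through the stage means. Ppp1r14c climbs from 15.4 to 297 TPM while Ppp1r14a drops from 21.8 to 0.937, and Ppp2r5b crosses Ppp2r5d between E14 and E15.5.

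Of the 12 PP1 targeting subunits, 5 rose and 3 fell from E12.5 to P0, against 27.1% and 51.0% of all genes. Ppp1r9b, or spinophilin, which holds PP1 in dendritic spines, stood at 84.5 and 93.5 TPM at E12.5, 98.0 and 92.4 at E14, 151 and 157 at E15.5, 216 and 177 at E17, and 182 in each at P0. It rose by 1.03 (SE 0.10, adjusted p = 1.2e-06). The largest fall was that of Ppp1r12a, the myosin phosphatase targeting subunit, which fell by 0.83 (adjusted p = 0.00015) from 16.7 and 16.2 TPM to 7.72 and 10.1. All 12 were higher in E17 replicate 1 than in replicate 2, by a median of 0.30, against 0.16 for all genes. The 3 that were called higher from E15.5 to E17 (Ppp1r9a, Ppp1r9b and Ppp1r37) became 0 of 12 without E17 replicate 1 and 8 of 12 without E17 replicate 2. From E17 to P0, 4 of the 12 fell, against 0 lower and 2 higher without E17 replicate 1 and 10 lower without E17 replicate 2.

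PP2A catalytic and scaffold genes rose, except for the minor scaffold. Ppp2ca, the alpha catalytic subunit, stood at 527 and 529 TPM at E12.5, 507 and 490 at E14, 535 and 523 at E15.5, 485 and 546 at E17, and 619 and 694 at P0, and only the P0 libraries lay apart from the rest. It rose by 0.31 (SE 0.09, adjusted p = 0.0057), with the called step from E17 to P0. The exons of Ppp2ca overlap those of Mir3061 on the same strand. Ppp2cb, the beta isoform, went from 131 and 136 TPM at E12.5 to 173 and 160 at P0 and rose by 0.31 (SE 0.07, adjusted p = 0.0018). The Ppp2ca share of the catalytic sum was 79.8% ± 0.381 at E12.5 and 79.7% ± 2.17 at P0 (SD, n = 2).

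The scaffold genes went opposite ways. Ppp2r1a, the major A-alpha scaffold, stood at 260 and 278 TPM at E12.5 and 345 and 343 at P0, and rose by 0.35 (SE 0.09, adjusted p = 0.0026). Ppp2r1b, the A-beta scaffold, stood at 53.9 and 56.4 TPM at E12.5, 58.1 and 56.1 at E14, 50.5 and 48.1 at E15.5, 40.1 and 28.4 at E17, and 18.0 and 18.5 at P0. It fell by 1.55 (SE 0.13, adjusted p = 5.4e-07), and its share of the scaffold sum went from 17% ± 0.201 to 5.04% ± 0.113 (SD, n = 2).

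Among the 9 B subunits, 4 rose and 3 fell from E12.5 to P0, against 27.1% and 51.0% of all genes. Ppp2r5b, the B56-beta subunit, stood at 39.1 and 42.1 TPM at E12.5, 53.5 and 49.3 at E14, 90.5 and 90.9 at E15.5, 114 and 104 at E17, and a mean of 151 ± 6.13 at P0 (SD, n = 2). It rose at every step without overlap, 3.71-fold in all and by 1.87 in log2 terms (SE 0.08, adjusted p = 2.1e-09). Its rise from E12.5 to E14 was not called when either E12.5 library or E14 replicate 2 was left out. Its call from E15.5 to E17 (0.26) was lost without E17 replicate 1 (0.20, adjusted p = 0.094) and with length and GC correction (0.12, adjusted p = 0.158). Ppp2r5d, the B56-delta subunit, stood at 87.3 and 96.9 TPM at E12.5, 58.6 and 54.4 at E17, and 68.6 and 67.0 at P0, and fell by 0.43 (adjusted p = 0.0005). The largest fall was that of Ppp2r5a, B56-alpha, which fell by 0.49 (adjusted p = 0.00064), from 29.1 and 27.7 TPM to 20.5 and 19.4.

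Ppp2r2b, the B-beta subunit enriched in neurons, stood at 151 and 145 TPM at E12.5, 221 and 223 at E14, 318 and 289 at E15.5, 254 and 228 at E17, and 218 and 213 at P0. It was highest at E15.5: it rose by 0.58 and 0.45 at the first and second steps and fell by 0.33 from E15.5 to E17 (adjusted p = 0.012). Ppp2r2d, B-delta, rose by 0.69. Ppp2r2a, B-alpha, stood at 101 and 98.0 TPM at E12.5 and 93.1 and 97.3 at P0, with a change of -0.06 (95% interval -0.22 to 0.10, adjusted p = 0.446) that turned to 0.21 under median-of-ratios scaling.

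The partners of PP2A were mixed. From E12.5 to P0, 5 of 13 genes in the table rose and 5 fell, against 27.1% and 51.0% of all genes. With median-of-ratios scaling 8 rose and 3 fell. Lcmt1, which methylates the catalytic subunit, rose by 0.83 (adjusted p = 5.8e-06). The acidic inhibitors of PP2A fell, Anp32e by 1.60 (adjusted p = 2.7e-08), Anp32a by 1.31 and Set by 0.86. Ensa, which inhibits PP2A in mitosis, had a change of 0.00 (adjusted p = 0.960), and its relative Arpp19 rose by 0.30.

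From E12.5 to P0, 51.0% of all genes tested fell and 27.1% rose. PP4, PP5 and PP6 genes were lower at P0 in most cases, with 6 of 8 falling and 1 rising. With median-of-ratios scaling 3 fell and 2 rose: Ppp6c and Ppp6r1 lost their call in 5 of the 22 alternatives each, and Ppp4r2 in 2. Ppp4c, the PP4 catalytic subunit, which acts at centrosomes, stood at 198 TPM in each E12.5 library, 179 and 180 at E14, 124 and 127 at E15.5, 109 and 111 at E17, and 106 and 90.7 at P0. It fell by 1.01 (SE 0.08, adjusted p = 3.2e-07), and the libraries of successive stages did not overlap. The largest fall was that of Ppp6r3, a PP6 regulatory subunit, by 1.23 (SE 0.10, adjusted p = 4.5e-07), from 95.3 and 96.1 TPM to 36.1 and 44.8, while Ppp6r2 rose by 0.44. Ppp6c, the PP6 catalytic subunit, fell by 0.30 (adjusted p = 0.0074), but its value was 0.12 after correction for length and GC content. Ppp5c stood at 71.5 and 70.5 TPM at E12.5 and 68.8 and 71.4 at P0, a change of -0.02 (95% interval -0.20 to 0.16, adjusted p = 0.845) whose sign turned under median-of-ratios scaling (0.25, adjusted p = 0.0059), quantile normalization, without P0 replicate 1, and after correction for length and GC content. The proliferation markers fell over the same stages, all 11 in the table, by a median of 4.0, and their part in these changes was not tested.

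The ratio of paired genes within a library depends on the scaling of that library only through the pseudocount of 1. For 10 pairs chosen among related subunits, the ratio was compared over the 5 stages by an exact permutation test over 945 pairings of the libraries, scored by F and adjusted over the 10 ratios; the smallest possible p is 0.0011. Of the 10, 9 differed between stages. Each permutation p-value is for differences among the 5 stages, not for E12.5 against P0. Ratios not marked as log2 are of stage mean TPM. Ppp2r1a was 4.88 times Ppp2r1b in TPM at E12.5 and 18.9 times at P0 (exact permutation p = 0.0021, adjusted p = 0.0035). Ppp2r5b went from 0.441 times Ppp2r5d to 2.22 times (adjusted permutation p = 0.0026), crossing over between E14 and E15.5. Ppp2r2a over Ppp2r2b was lowest at E15.5, at -1.68 on the log2 scale against -0.57 at E12.5 (adjusted permutation p = 0.0026).

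From E12.5 to P0, the log2 ratios of the catalytic pairs changed by between -0.60 and 0.54. That of Ppp2r2a to Ppp2r2b also changed by -0.60 over this span. Ppp3ca over Ppp3cb rose from 0.479 to 0.699 (exact permutation p = 0.038, adjusted p = 0.045), so that Ppp3ca made up 32.4% ± 0.125 of the calcineurin A sum at E12.5 and 41.2% ± 1.99 at P0 (SD, n = 2). Ppp1ca over Ppp1cb fell from 0.785 to 0.518 (adjusted permutation p = 0.045), and Ppp1ca over Ppp1cc rose from 2.23 to 2.78 (adjusted permutation p = 0.021). Ppp2ca over Ppp2cb was 3.94 at both E12.5 and P0, and a difference between stages was not detected (exact permutation p = 0.757).

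**Figure D4:**
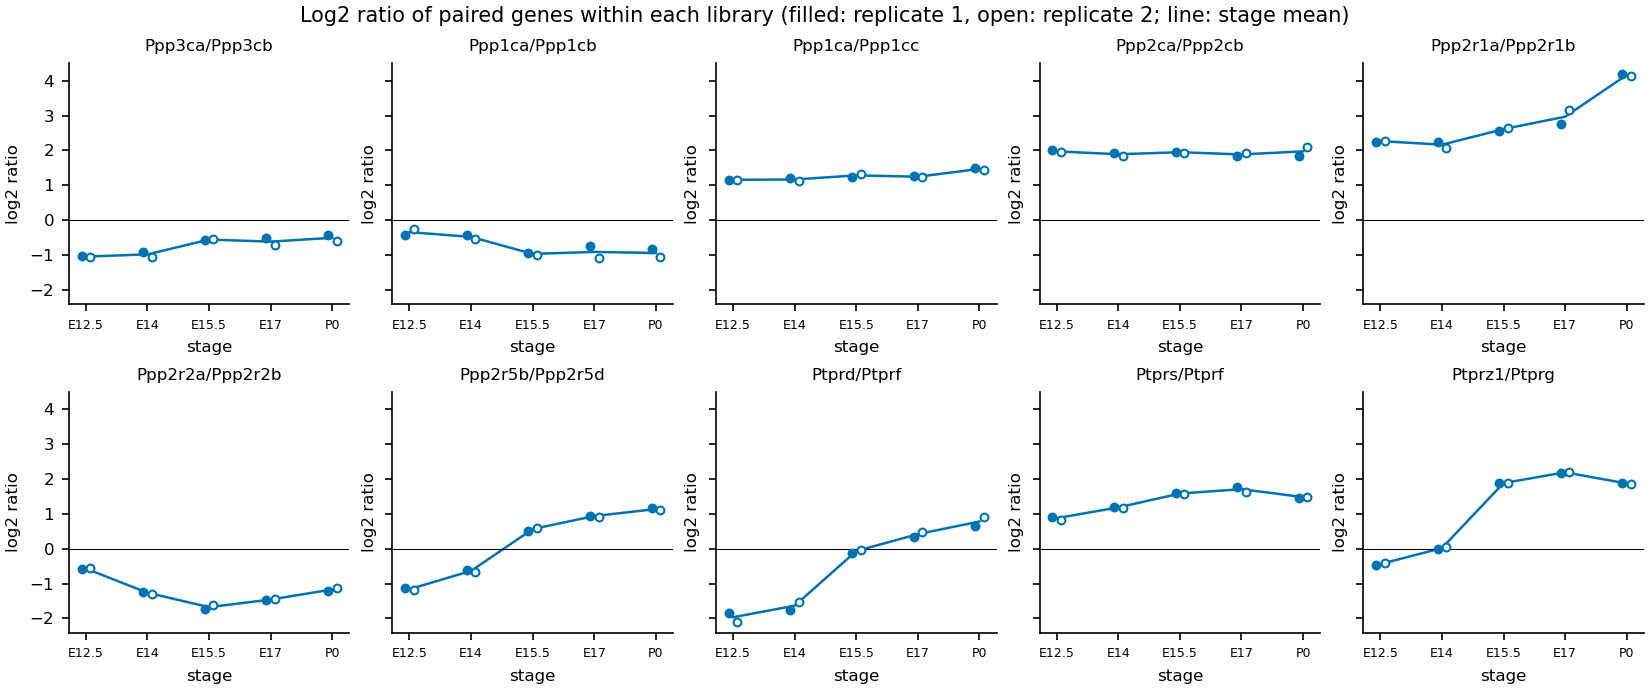
Log2 ratio (y axes, one scale for all panels) of 10 pairs of related genes within each library at each stage (x axes), with 1 point for each library and a line through the stage means. Ptprd over Ptprf climbs from -1.97 to 0.78 and Ptprz1 over Ptprg from -0.44 to 1.87, while Ppp2ca over Ppp2cb has stage means between 1.88 and 1.97.

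The 9 receptor tyrosine phosphatases split into 5 that rose and 4 that fell from E12.5 to P0, and the sign differed even between close relatives. Among all genes tested, 27.1% rose and 51.0% fell. Ptprs, Ptprf and Ptprd form the LAR family, which binds heparan and chondroitin sulfate proteoglycans and synaptic adhesion proteins. Ptprf (LAR) stood at 70.9 and 80.9 TPM at E12.5, 56.2 and 56 at E14, 27.3 and 26.5 at E15.5, 45.1 and 27.3 at E17, and 21.6 and 19.0 at P0. It fell 3.74-fold, by 1.85 in log2 terms (SE 0.18, adjusted p = 1.6e-06). Ptprs (PTP sigma) stood at 135 and 145 TPM at E12.5, 130 and 128 at E14, 84.3 and 81.1 at E15.5, 157 and 87.5 at E17, and 61.4 and 55.4 at P0, and fell by 1.25 (SE 0.19, adjusted p = 9.5e-05). Both were low from E15.5 on except in E17 replicate 1, which was above the E12.5 libraries for Ptprs.

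Ptprd (PTP delta), the other LAR-family gene, rose. It stood at 19.1 and 18.1 TPM at E12.5, 16.0 and 18.8 at E14, 25.2 and 26.0 at E15.5, 57.6 and 38.8 at E17, and 34.6 and 36.4 at P0. The rise was 0.90 (SE 0.15, adjusted p = 0.00022), and every library from E15.5 on was above the 4 earlier ones. Within a library, Ptprd was 0.245 times Ptprf at E12.5 and 1.75 times at P0 (adjusted permutation p = 0.0026), and Ptprs went from 1.85 to 2.88 times Ptprf (adjusted permutation p = 0.0026). In the E17 libraries the log2 ratio of Ptprd to Ptprf was 0.35 and 0.49.

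Ptprz1 and Ptprg are the receptor phosphatases with a carbonic anhydrase-like domain, and they bind contactins. Ptprz1, known from radial glia and from binding pleiotrophin and midkine, stood at 24.5 and 25.3 TPM at E12.5, 26.5 and 29.3 at E14, 46.1 and 45.3 at E15.5, 80.3 and 64.7 at E17, and 37.2 and 40.0 at P0. It rose by 0.61 from E12.5 to P0 (SE 0.11, adjusted p = 0.00028), but fell by 0.88 from E17 to P0. Of the radial glial markers, 7 of 10 were in the table, of which 2 rose and 5 fell from E12.5 to P0. Their part in the Ptprz1 course was not tested. Ptprg stood at 34.6 and 33.8 TPM at E12.5, 26.5 and 28.6 at E14, 11.7 and 11.6 at E15.5, 17 and 13.1 at E17, and 9.34 and 10.3 at P0. It fell by 1.70 (SE 0.12, adjusted p = 1.3e-07). From E14 to E15.5, the step at which the meningeal and vascular markers dropped, Ptprg fell by 1.17 and Ptprf by 1.03, and the part of those markers was not tested. The Ptprz1 to Ptprg ratio went from 0.729 to 3.93 (adjusted permutation p = 0.0035), with most of the difference between E14 and E15.5.

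Ptprk and Ptpro rose most. Ptprk, which makes contacts between like cells, stood at 9.46 and 9.92 TPM at E12.5, 7.68 and 8.27 at E14, 10.4 and 10.9 at E15.5, 33.2 and 24.1 at E17, and 30.3 and 30.5 at P0. The E17 and P0 libraries were all above the earlier ones, and the gene rose by 1.55 (SE 0.13, adjusted p = 6.8e-07), nearly all of it from E15.5 to E17 (1.34, adjusted p = 0.00017). Ptpro stood at 14.6 and 14.9 TPM at E12.5, 17.3 and 18.3 at E14, 35.4 and 37.8 at E15.5, 73.6 and 53.0 at E17, and 42.1 and 41.0 at P0, and rose by 1.43 (SE 0.13, adjusted p = 1.1e-06).

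Ptprj, of low level, went from 3.56 and 3.08 TPM to 6.63 and 6.53 and rose by 0.81 (adjusted p = 0.00068). Ptpra, a broad activator of Src kinases, stood at 62.6 and 62.4 TPM at E12.5, 51.6 and 48.2 at E15.5, 72.5 and 61.6 at E17, and 53.9 and 51.2 at P0. It fell by 0.25 (SE 0.09, adjusted p = 0.026), but its change was 0.02 with median-of-ratios scaling and 0.13 after correction for length and GC content.

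From E15.5 to E17 all 9 receptor phosphatases had a positive change, 6 of them called, with a median of 0.65 against 0.01 for all genes. From E17 to P0, 6 fell and 0 rose, and without E17 replicate 1, 6 fell and 1 rose. The highest stage mean was at E17 for 5 of the 9 (Ptpra, Ptprd, Ptprj, Ptpro and Ptprz1), against 16.4% of all genes. All 9 were also higher in E17 replicate 1 than in replicate 2, by a median of 0.47 on the log2 scale against 0.16 for all genes. Their median transcript length was 7634 bases against 3186 for all genes tested.

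The rise at E17 was smaller without the first E17 library. Without E17 replicate 1 the median of the 9 was 0.46 and 6 were called, and without E17 replicate 2 it was 0.92 and 9 were called. Without replicate 1 the values of Ptprf and Ptprs were 0.02 and 0.08 (0.37 and 0.50 with both), while Ptprk kept 1.11, Ptprd 0.58, Ptpro 0.52, Ptprz1 0.49, Ptprj 0.46 and Ptpra 0.30, all called. With correction for length and GC content 6 were called and the median was 0.47. With only the 4 libraries of E15.5 and E17 in the fit, 1 of the 9 was called. What sets the 2 E17 libraries apart was not tested.

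**Figure D5:**
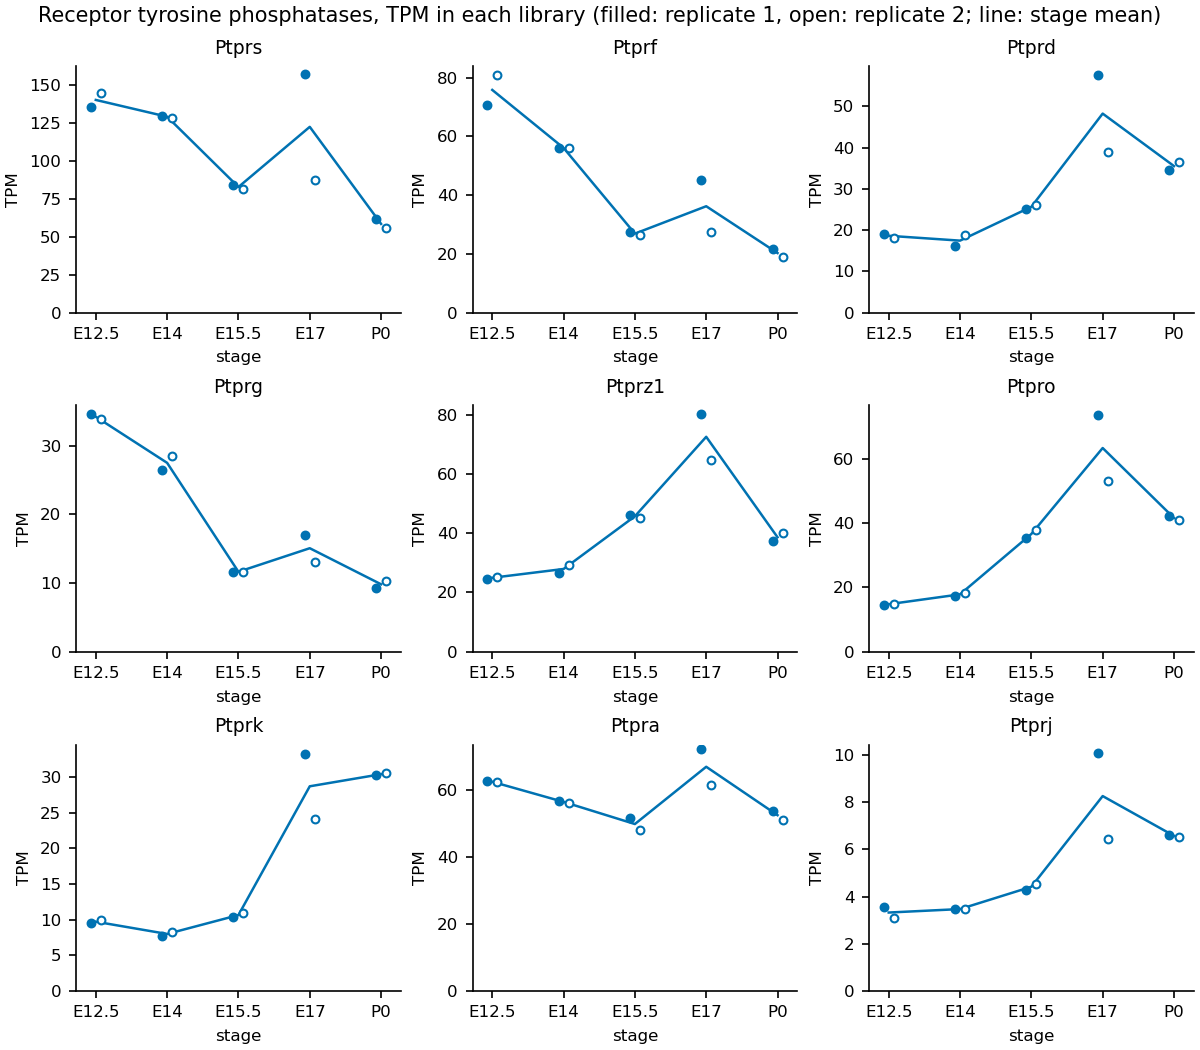
Level in TPM (y axes, each from 0) of the 9 receptor tyrosine phosphatases at each stage (x axes), with 1 point for each library and a line through the stage means. Ptprf, Ptprg and Ptprs have their highest mean at E12.5 and drop by E15.5, the others are highest at E17 or P0, and E17 replicate 1 lies above replicate 2 in all 9 panels.

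Of 23 listed ligands and partners of receptor phosphatases, 16 were in the table, of which 10 rose and 4 fell from E12.5 to P0. Among all genes tested, 27.1% rose and 51.0% fell. Cntn1 (contactin 1, a partner of Ptprz1) rose by 3.30 (SE 0.11, adjusted p = 1.8e-10), from 3.61 to 44.3 TPM. Cntn6, a contactin, rose by 2.95, and Ppfia2 and Ppfia3, which encode liprins that bind the LAR family inside the cell, rose by 2.04 and 1.64. Of the soluble ligands of Ptprz1, Mdk (midkine) fell by 3.51 (SE 0.13, adjusted p = 5.8e-10); its mean was 659 TPM at E12.5 and 57.3 at P0. Ptn (pleiotrophin) rose by 0.53, from 718 to 1041 TPM, while Gpc4, a heparan sulfate proteoglycan, fell by 3.23. At the E15.5 to E17 step, 14.4% of all genes tested were called higher and 10.6% lower. From E15.5 to E17, 11 of the 16 rose and 0 fell, and without E17 replicate 1, 8 rose and 2 fell.

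Non-receptor tyrosine phosphatases had lower values at P0 in all 6 genes, of which 3 were called, near the 51.0% of all genes that fell. Ptpn11 (SHP2, needed for growth factor signalling to ERK) stood at 205 and 215 TPM at E12.5, 192 and 188 at E14, 151 and 153 at E15.5, 156 and 116 at E17, and 107 and 116 at P0. It fell by 0.91 (SE 0.11, adjusted p = 1.8e-05). Ptpn12 (PTP-PEST) fell by 0.87 and Ptpn2 by 0.67. Ptpn1 (PTP1B) had a change of -0.11 (95% interval -0.39 to 0.18, adjusted p = 0.469) that turned to 0.17 with median-of-ratios scaling. Ptpn23 and Ptpn9, also not called, ranged up to 0.28 and 0.11 over the alternatives.

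All 7 Ppm1 genes changed from E12.5 to P0, with 2 rising and 5 falling. Of all genes tested, 78.2% were called (27.1% higher, 51.0% lower). Ppm1b and Ppm1g were each called in 21 of the 22 alternatives. Ppm1f (POPX2, which acts on PAK and CaM kinases) fell most, by 1.25 (SE 0.11, adjusted p = 5.8e-07), from 73.9 and 80.5 TPM to 30.9 and 32.7. Its relative Ppm1e (POPX1) rose by 0.69 (SE 0.11, adjusted p = 9.5e-05), from 51.1 and 51.5 TPM to 73.9 and 94.0. Ppm1g fell by 0.26 from E12.5 to E14 (adjusted p = 0.031), the one member called lower at that step. It lost this call in 9 alternatives, without any of the E12.5, E14 or E15.5 libraries among them, where the adjusted p was 0.078 to 0.213.

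Of the 3 atypical dual specificity phosphatases, Dusp3 (VHR, which acts on ERK and JNK) stood at 22.4 and 23.3 TPM at E12.5, 22.9 and 23.0 at E14, 22.2 and 23.9 at E15.5, 35.3 and 33.6 at E17, and 59.2 and 58.0 at P0. Its libraries lay within 22.2 to 23.9 TPM up to E15.5, and it then rose by 0.56 and 0.75, in all by 1.32 (SE 0.09, adjusted p = 6.2e-08). Dusp12 rose by 0.45. Dusp19 fell by 0.81 (adjusted p = 5.6e-05), from 27.3 and 24.7 TPM to 13.3 and 15.6, and shares exon bases with Nup35 on the same strand. Of the listed FGF and ERK feedback genes 1 was in the table, Fgfr3, which fell by 3.45 (adjusted p = 3.5e-09), from 112 to 9.39 TPM.

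Of 35 listed phosphatases of other families, 20 were in the table. From E12.5 to P0, 3 of them rose and 12 fell, or 4 and 6 with median-of-ratios scaling. Over all genes tested, 27.1% rose and 51.0% fell without that scaling. Pdp1, which activates mitochondrial pyruvate dehydrogenase, rose by 1.07 (adjusted p = 2.6e-07). Eya4 and Eya3, both transcriptional cofactors with phosphatase activity, fell by 2.41 and 1.57.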

How the data were processed

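The authors deposited TPM per gene, 1 column per library, per the file headers. Libraries were made with a stranded mRNA kit, per the labels' protocols. The submitters' processing notes name STAR, Subread and GRCm38.p5, with annotation, strand setting and gene length not given in the sources used here. TPM are shares of a total, so sequencing depth is unknown and a rise of abundant genes lowers the rest. Stages and replicate numbers came from the labels; 0 columns lacked a sample.

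Values were taken as log2(TPM + 1), which understates changes of low genes. The 99 genes with a mean under 1 TPM were left out, leaving 6048. limma 3.58.1 (R 4.3.3) fitted 1 mean per stage over all 10 libraries (5 residual degrees of freedom, variance trend); the median SE of a difference was 0.107. The exact permutation tests, tables and figures used Python 3.11.15. Scripts were tested on simulated data. Alternatives were pseudocounts, filters, scalings, array weights, robust moderation, a replicate block, fits of 4 libraries and leaving out each library; a fit without E17 and a correction for length and GC content were chosen after seeing the data. Gene positions, lengths and overlaps are from GENCODE M21, matched by identifier for 71 of 71 members. Of these, 29 share exon bases with another gene (6 on the same strand, 25 on the other), and reads may have been split there.

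The members and lists were chosen with earlier results of these data known. Named genes are all catalytic and core subunits, the highest and lowest change in each family, receptor phosphatases with a mean of at least 5 TPM, the 2 largest called rises and falls at each step, the highest mean, members of the paired ratios, and genes of a pathway or marker list where it is given. Other genes named beside these (Ppp1r14b, Ppp1r1a, Ppp1r8, Ppp1r2, Ppp1r9a, Ppp1r37, Ppp2r2d, Ppp4r2, Ppp6r1, Ptpn12, Ptpn2, Ptpn9, Ptpn23, Ppm1b, Dusp12 and those with a cyclic AMP response element) were chosen after their values were seen. Of 12 ratios listed, 2 had a gene outside the table or under the minimum and were dropped. Values of 2 genes of the pathway lists are not reported here.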

Additional observations from a re-analysis of the deposited data

How the results depend on the processing

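From E12.5 to P0 the number of members called stayed between 54 and 60 under the 22 alternatives; over the 5 stages it was 56 to 67 where that test was run. Counts at single steps depended more on the processing, and the cause was not tested. From E12.5 to E14 (6 called) there were 24 with array weights, 25 with only the 4 libraries in the fit, 15 with no E17 libraries, 16 with length and GC correction, and 2 to 15 leaving out each library. From E14 to E15.5 (38) there were 51 with array weights, 51 with only the 4 libraries, and 23 to 44 leaving out each library. From E15.5 to E17 (17) there were 10 with array weights, 2 with only the 4 libraries, 31 with length and GC correction, and 8 to 32 leaving out each library. From E17 to P0 (38) there were 15 with array weights, 14 with only the 4 libraries, and 27 to 52 leaving out each library.

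Of 902 values of 41 named genes from E12.5 to P0, 877 kept direction and call, 11 lost the call, 2 gained it and 12 turned. Those that turned were Ppp5c (0.25 with median-of-ratios scaling, 0.12 with quantile normalization, 0.033 with length and GC correction, and -0.045 to 0.0076 leaving out each P0 library), Ppp6c (0.12 with length and GC correction), Ptpn1 (0.17 and 0.012 with the 2 scalings), Ptpra (0.024 with median-of-ratios, 0.13 with length and GC correction) and Ppp2r2a (0.21, 0.056 and 0.34 with median-of-ratios scaling, quantile normalization and length and GC correction). The Ppp2ca to Ppp2cb log2 ratio, -0.00 from E12.5 to P0, turned to 0.012 with a pseudocount of 10 and 0.00048 with median-of-ratios scaling, and ran from -0.14 to 0.14 leaving out each library.

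The replicate number was also fitted as a block. Of 10 correlations of the deviations of same-numbered libraries, 1 was over 0.1, at 0.11 (E14 with P0). The most negative were -0.37 (E12.5 with E17), -0.28 (E12.5 with E14) and -0.14 (E12.5 with P0). These values cannot show whether same-numbered libraries shared more than a number. With the replicate block 61 members were called over the 5 stages, 58 from E12.5 to P0, and 5, 34, 16 and 36 at the 4 steps; Ppm1g lost its call from E12.5 to E14 (adjusted p = 0.053). Depth cannot be read from TPM, so no limit of detection is given.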
